A study of Arabidopsis thaliana with 12 samples.

Results

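SWEET genes encode facilitators that let sugars move through membranes down their own gradient. This account covers 10 SWEET genes of Arabidopsis thaliana, chosen by name and followed through roots at 2 nitrogen supplies in 2 genotypes. Of the 10, 9 were matched by symbol, through the annotation of the array, to a probe set with 1 gene, and each of the 9 had 1 such probe set. SWEET12 had none in the annotation used and was not analysed here. SWEET15 was matched through its other symbol, SAG29. The 9 are among 13286 genes with a single-gene probe set. The RNA came from roots of the hni9 mutant and of the wild type (WT), and was read on 12 Affymetrix arrays, 3 per group. Low nitrogen was 0.3 mM KNO3 and high nitrogen 10 mM NH4NO3, and plants were kept on either until they were in steady state. The 4 groups are hni9 at low nitrogen, hni9 at high nitrogen, WT at low nitrogen and WT at high nitrogen. HNI9, also called IWS1, is a factor of transcript elongation. What kind of mutation hni9 is, and the age and accession of the plants, the labels do not say. They title the first hni9 sample of a group hni9-1, the second hni9-2 and the third plain hni9, and whether these are alleles is not said. The supplies differ in their salt as well as in the amount of nitrogen, and these effects cannot be told apart.

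SWEET proteins differ in the membrane they sit in and in the sugar they carry. SWEET2, SWEET16 and SWEET17 reside in the membrane of the vacuole, the store of sugars in a root cell, and SWEET17 is best known for carrying fructose. SWEET11, SWEET12, SWEET13, SWEET14 and SWEET15 belong to the group that carries sucrose through the plasma membrane, and SWEET11 and SWEET12 release sucrose for loading into the phloem of leaves. SWEET1 and SWEET4 carry hexoses. Roots live on sugar, mostly sucrose, that the shoot sends down.

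Values are linear intensities as deposited by the authors, whose trimmed mean is 500.0 on each array. The median probe set of an array had an intensity of 199 to 221. SWEET2 and SWEET17 lay above the array's median on all 12 arrays, SWEET16 on 10, SWEET13 and SWEET14 on 7 each and SWEET1 on 6. SWEET4, SWEET11 and SWEET15 lay below it on all 12. All changes are log2 fold changes of the value plus 16 ± standard error from limma, with n = 3 arrays per group unless 6 are named, and a gene passed at an adjusted p under 0.05 over 22746 probe sets. Shares of all probe sets that rose, fell or passed are at that adjusted p. Where counts at an unadjusted p under 0.05 are given, the share of all probe sets was not counted. With 16 added, changes of the dim genes are understated. In whole roots, fewer cells of a type and less RNA per cell cannot be told apart. As a sign of RNA quality, the 3′ control probe set of GAPDH was divided by its 5′ one. This came to 0.921 to 1.27 on 9 arrays, and to 1.31 to 1.35 on the 3 of WT at high nitrogen. The same ratio for actin was 5.50 to 10.1 on the 9 arrays, and WT at high nitrogen held both the lowest and the highest of the 12, at 5.22 and 15.1. The part of RNA quality in the results was not tested.

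Low nitrogen went with higher levels of the same 4 SWEET genes in each genotype. SWEET2 and SWEET17 of the vacuole and SWEET13 and SWEET14 of the sucrose group rose in hni9 and in WT, by log2 changes of 0.54 to 1.09. Of the 9 genes 4 rose and 0 fell in hni9, where 2.98% of all probe sets rose and 2.12% fell. In WT, too, 4 rose and 0 fell, where 2.84% of all probe sets rose and 2.9% fell. Higher in both genotypes were 1.09% of all probe sets. The median change of the 9 was 0.33 in hni9 and 0.54 in WT, against medians over all probe sets of -0.05 in hni9 and -0.02 in WT. The low-nitrogen arrays of hni9 lay above those at high nitrogen, with no overlap, for the same 4 genes (8.21% of all probe sets). In WT they did so for these 4 and SWEET15 (11.6% of all probe sets), and lay below for SWEET1 and SWEET11 (13.3%). The genes were listed with earlier results of these data known, so these counts describe them and are no independent support. The log2 changes in hni9 and in WT rest on different arrays. Their p-values share an estimate of the spread from all arrays, so the calls in the genotypes are not separate.

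**Figure D1:**
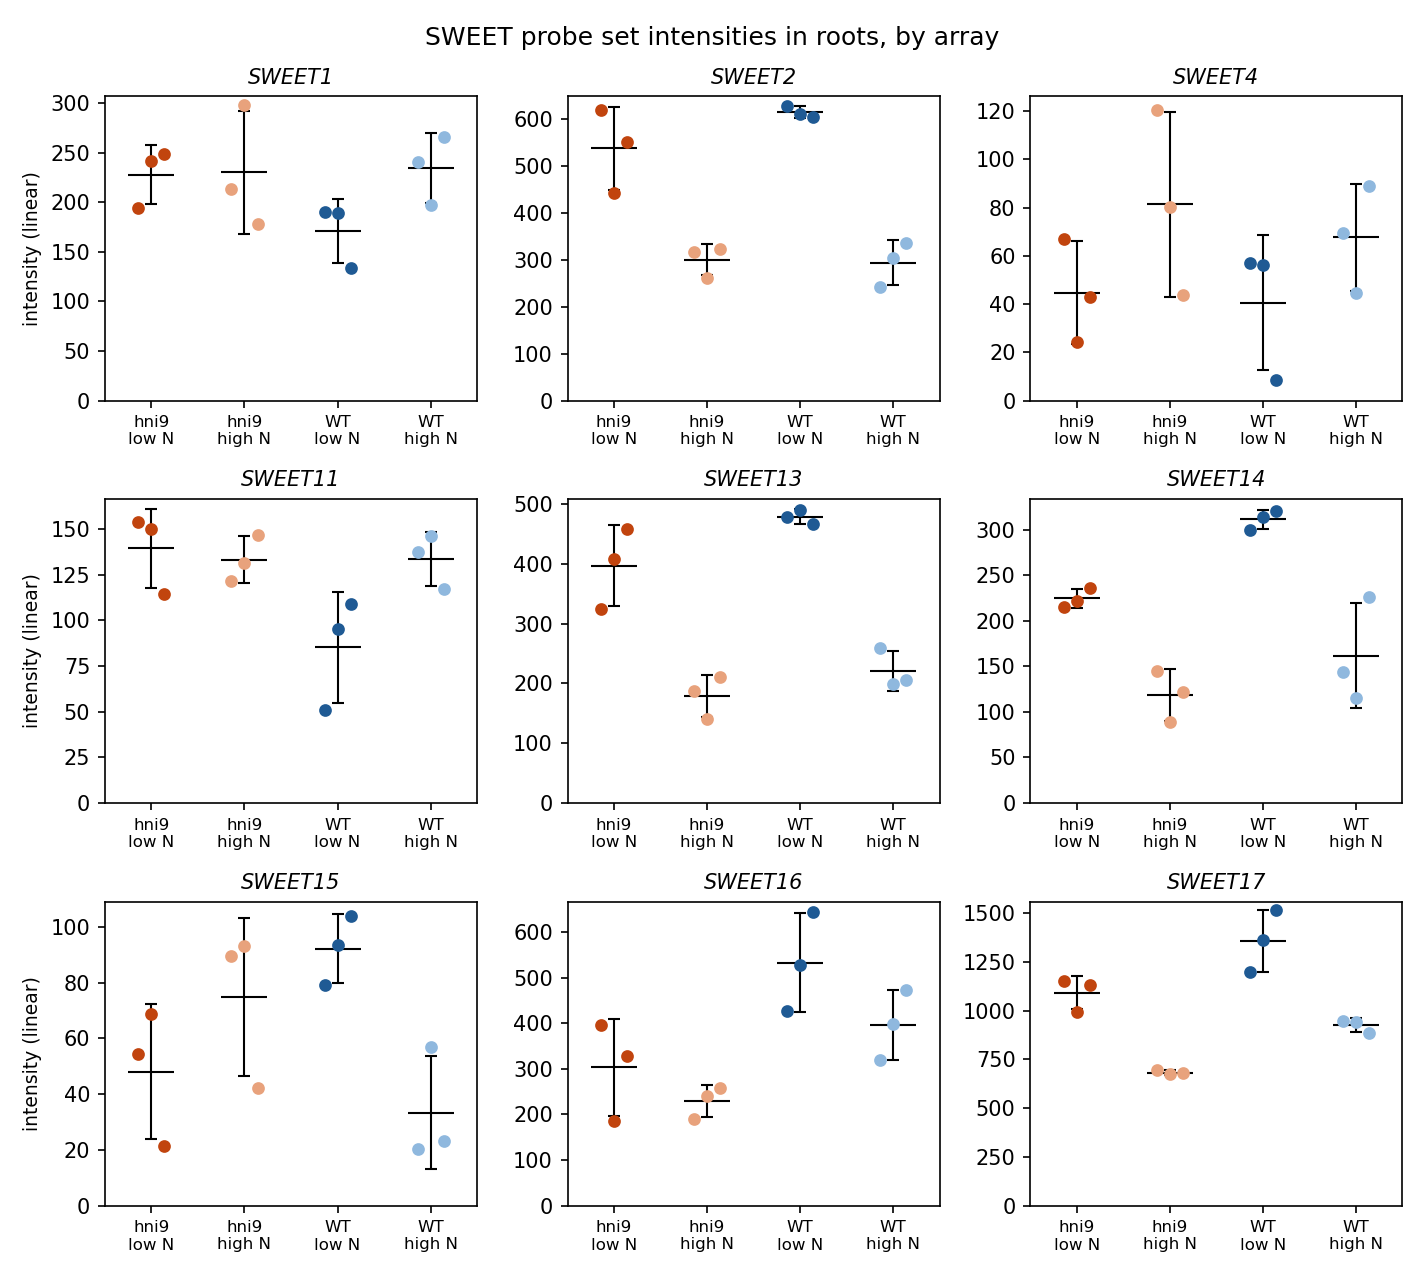
Intensity (linear scale) of 9 SWEET probe sets on each of 12 arrays, by group; points are arrays, and the bar and whiskers are the mean and SD of 3 arrays. For SWEET2, SWEET13, SWEET14 and SWEET17 the low-nitrogen arrays of each genotype lie above all high-nitrogen arrays of that genotype.

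Among the vacuolar facilitators, SWEET2 is known in roots for keeping sugar from leaking into the soil. Its intensities in hni9 were 619, 443 and 551 at low nitrogen, against 316, 262 and 323 at high nitrogen. In WT they were 629, 611 and 604 at low nitrogen, against 242, 304 and 337 at high nitrogen. All 6 low-nitrogen arrays lay above all 6 high-nitrogen arrays, whatever the genotype. SWEET2 rose at low nitrogen by 0.80 ± 0.15 in hni9 (adjusted p = 0.00592) and by 1.04 ± 0.15 in WT (adjusted p = 0.000797). The ratio of mean intensities was 1.79 in hni9 and 2.09 in WT. Between the genotypes its arrays overlapped at each supply, with changes of -0.20 ± 0.15 at low and 0.03 ± 0.15 at high nitrogen.

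SWEET17, the fructose facilitator of the vacuole, had the smallest standard errors of the 9. Its intensities in hni9 were 1152, 995 and 1132 at low nitrogen, against 696, 673 and 679 at high nitrogen. In WT they were 1197, 1362 and 1516 at low nitrogen, against 949.5, 941 and 883 at high nitrogen. No 2 groups overlapped: WT at low nitrogen was highest, then hni9 at low nitrogen, then WT at high nitrogen, and hni9 at high nitrogen was lowest. SWEET17 rose at low nitrogen by 0.66 ± 0.10 in hni9 (adjusted p = 0.000926) and by 0.54 ± 0.10 in WT (adjusted p = 0.00405). It fell in hni9 at high nitrogen, with a change of -0.43 ± 0.10 against WT (adjusted p = 0.0159). This call was lost without WT replicate 1 or 2 at high nitrogen (adjusted p = 0.0594 and 0.0584), and without the intensity trend of the variance (adjusted p = 0.0713). At low nitrogen all hni9 arrays lay below all WT arrays, with a change of -0.31 ± 0.10 that did not pass (adjusted p = 0.148).

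SWEET16, which carries several sugars through the vacuolar membrane, gave 396, 187 and 328 in hni9 at low nitrogen and 189.5, 240.0 and 259 in hni9 at high nitrogen. In WT it gave 427, 529 and 645 at low nitrogen and 319.5, 399 and 473 at high nitrogen. At each supply every hni9 array lay below every WT array, while the 2 supplies overlapped within each genotype. Its nitrogen change was 0.33 ± 0.24 in hni9 and 0.41 ± 0.24 in WT, and neither passed (adjusted p = 0.574 and 0.427). The change in hni9 was -0.82 ± 0.24 at low nitrogen (adjusted p = 0.109) and -0.74 ± 0.24 at high nitrogen (adjusted p = 0.0797), and neither passed. Averaged over both supplies, with 6 arrays against 6, SWEET16 fell in hni9, with a change of -0.78 ± 0.17 (adjusted p = 0.00958). Replicate 2 of hni9 at low nitrogen was the lowest of its group. Without it the change at high nitrogen, whose value it does not enter, passed (adjusted p = 0.0231), and so did the nitrogen response averaged over genotypes, at 0.52 (adjusted p = 0.031) in place of 0.37 ± 0.17 (adjusted p = 0.231).

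In the sucrose group, SWEET13 is known from leaf veins, where it can stand in for SWEET11 and SWEET12. Its intensities in hni9 were 325, 407 and 458 at low nitrogen, against 187, 140.0 and 210.0 at high nitrogen. In WT they were 479, 491 and 467 at low nitrogen, against 259.6, 199 and 206 at high nitrogen. The 6 low-nitrogen arrays lay above all 6 high-nitrogen arrays, and the 3 WT arrays at low nitrogen above all others. SWEET13 rose by 1.09 ± 0.18 in hni9 (adjusted p = 0.00215) and by 1.07 ± 0.18 in WT (adjusted p = 0.00219), ratios of mean intensities of 2.22 in hni9 and 2.16 in WT. In hni9 against WT it had -0.27 ± 0.18 at low nitrogen and -0.29 ± 0.18 at high nitrogen, and neither passed.

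SWEET14 is the close relative of SWEET13, and both are also known to carry gibberellin. Whether probes of one bind transcripts of the other was not tested. Its intensities in hni9 were 216, 222 and 236 at low nitrogen, against 145, 88.7 and 122 at high nitrogen. In WT they were 299.7, 314 and 320.2 at low nitrogen, against 144, 115 and 226 at high nitrogen. Within each genotype the low-nitrogen arrays lay above the high-nitrogen arrays, but replicate 3 of WT at high nitrogen lay among the hni9 arrays at low nitrogen. SWEET14 rose by 0.93 ± 0.24 in WT (adjusted p = 0.031). In hni9 it rose by 0.86 ± 0.24, with an adjusted p of 0.04998 at the edge of the threshold. Over the alternatives its change in hni9 was 0.67 to 1.00, with adjusted p from 0.0199 to 0.189. In hni9 the call was lost without any 1 of the 3 hni9 arrays at low nitrogen, hni9 replicate 2 or 3 at high nitrogen, WT replicate 1 at high nitrogen, or any 1 of the 3 WT arrays at low nitrogen. It was also lost with 64 added in place of 16, without the intensity trend, when WT arrays were kept out of the fit, and with replicates 1 and 2 alone. In WT it was lost with replicates 1 and 2 alone, and without WT replicate 1 or 2 at high nitrogen or any 1 of the 3 WT arrays at low nitrogen (adjusted p up to 0.135). Averaged over genotypes, with 6 arrays against 6, it rose by 0.89 ± 0.17 (adjusted p = 0.00286). At low nitrogen every hni9 array lay below every WT array, with a change of -0.44 ± 0.24 (adjusted p = 0.455).

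SWEET11, which releases sucrose towards the phloem in leaves, was dim, with 154, 149.9 and 115 in hni9 at low nitrogen and 122, 131 and 147 in hni9 at high nitrogen. In WT it had 51.1, 95.6 and 109 at low nitrogen and 138, 146 and 117 at high nitrogen. The 3 WT arrays at low nitrogen lay below the other 9. The nitrogen change was 0.05 ± 0.27 in hni9 and -0.61 ± 0.27 in WT, and that of hni9 against WT at low nitrogen was 0.66 ± 0.27 (adjusted p = 0.961, 0.247 and 0.283). SWEET1, a glucose facilitator of the plasma membrane, also had its lowest mean in WT at low nitrogen. It averaged 228 ± 29.6 in hni9 at low nitrogen, 230.2 ± 61.8 in hni9 at high nitrogen, 171 ± 32.3 in WT at low nitrogen and 235 ± 35.1 in WT at high nitrogen (SD). Its WT arrays at low nitrogen overlapped neither with WT at high nitrogen nor with hni9 at low nitrogen, and its nitrogen change in WT was -0.43 ± 0.22 (adjusted p = 0.346).

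SWEET15, known as a gene of senescing tissue and of seed filling, was dim and ordered differently in the genotypes. Its intensities in hni9 were 54.4, 68.7 and 21.2 at low nitrogen, against 89.5, 93.1 and 42.3 at high nitrogen, which overlap. In WT they were 79.2, 93.6 and 104 at low nitrogen, against 20.2, 56.7 and 23.2 at high nitrogen, with no overlap. The nitrogen change was -0.53 ± 0.40 in hni9 (adjusted p = 0.582) and 1.20 ± 0.40 in WT (adjusted p = 0.103). The difference of these changes, hni9 minus WT, was -1.73 ± 0.56 and did not pass (adjusted p = 0.225, unadjusted p = 0.00771). SWEET4, a hexose facilitator, was the dimmest by its median and averaged 44.7 ± 21.3 in hni9 at low nitrogen, 81.5 ± 38.4 in hni9 at high nitrogen, 40.6 ± 27.9 in WT at low nitrogen and 67.7 ± 22.3 in WT at high nitrogen (SD). Its 4 groups overlapped, and its nitrogen changes of -0.66 ± 0.47 in hni9 and -0.69 ± 0.47 in WT were not detectable at this spread.

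**Figure D2:**
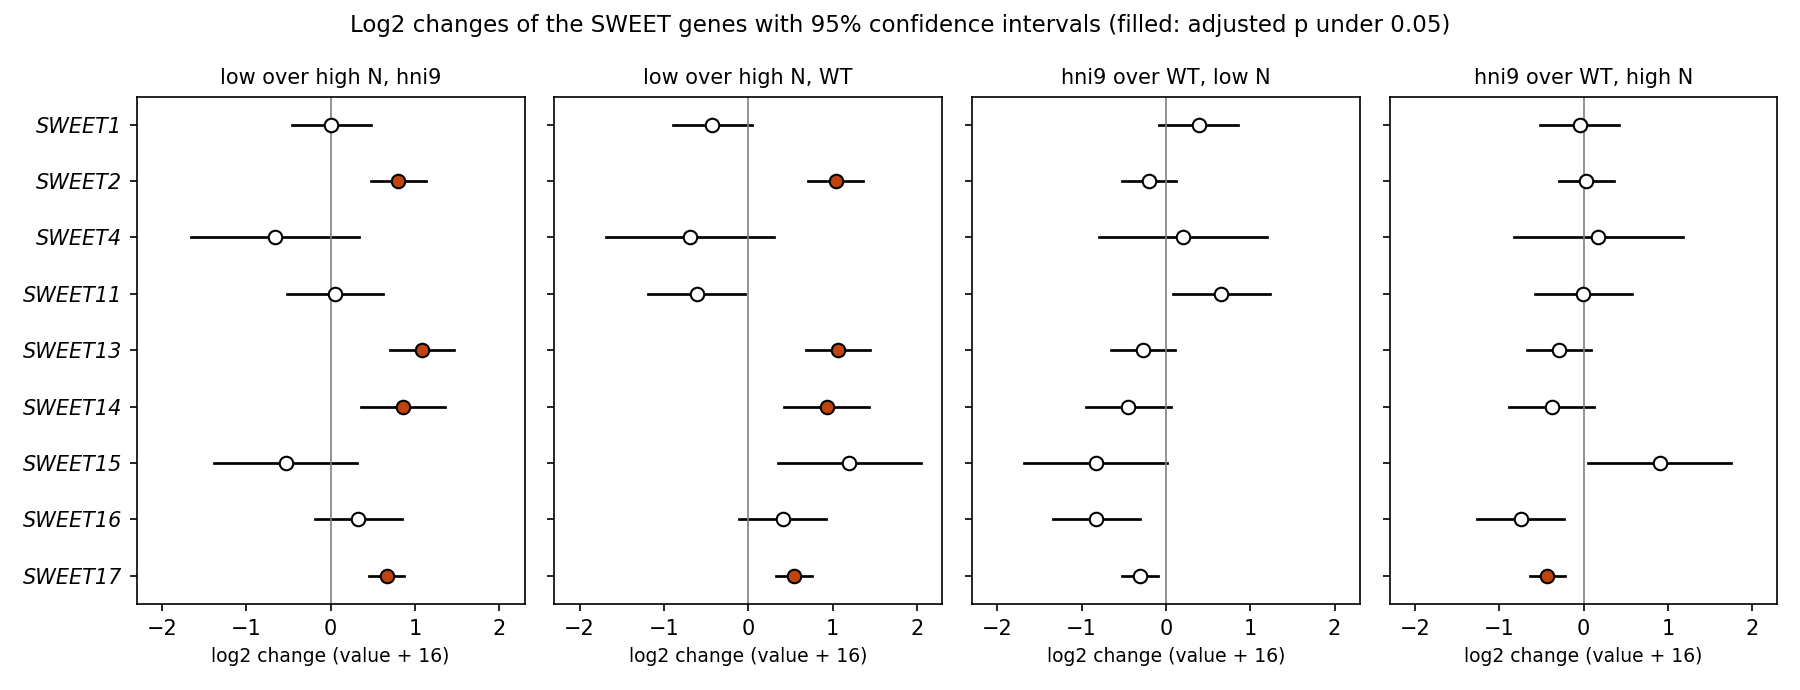
Log2 change (value + 16) of 9 SWEET genes in 4 comparisons, as points with 95% confidence intervals from limma; filled points passed an adjusted p under 0.05. Filled are SWEET2, SWEET13, SWEET14 and SWEET17 in both nitrogen comparisons, 0 genes for hni9 over WT at low nitrogen and SWEET17 for hni9 over WT at high nitrogen.

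The comparison of hni9 with WT asks whether the mutant alters these levels at a given supply. The vacuolar genes SWEET16 and SWEET17 were lower in hni9 on average over supplies, and the other 7 did not pass. Among those 7, SWEET14 had -0.41 ± 0.17 and SWEET13 -0.28 ± 0.13 on that average (adjusted p = 0.155 and 0.2). The third vacuolar gene, SWEET2, had -0.08 ± 0.11, and the changes of 4 of the 9 were positive. At high nitrogen 1 of the 9, SWEET17, fell and 0 rose, where 4.33% of all probe sets fell and 3.34% rose. At low nitrogen limma called 0 of the 9, where 2.06% of all probe sets passed in either direction. An unadjusted p under 0.05 was found for 3 of the 9, without a share of all probe sets to set beside it. At low nitrogen all 3 hni9 arrays nevertheless lay below all 3 WT arrays for 5 genes, SWEET13, SWEET14, SWEET15, SWEET16 and SWEET17, where 9.64% of all probe sets did so. They lay above for SWEET1 and SWEET11, where 8.68% of all probe sets did. At high nitrogen the arrays lay below for SWEET16 and SWEET17, where 12.3% of all probe sets did, and above for 0 of the 9, where 13.5% did. Over both supplies, with 6 arrays against 6, 2 of the 9 fell and 0 rose, where 5.01% of all probe sets fell and 4.4% rose. On this average 4 of the 9 had an unadjusted p under 0.05, where the share of all probe sets was not counted. SWEET17 changed by -0.37 ± 0.07 (adjusted p = 0.00403), and SWEET16 by the value given above. The log2 changes at each supply share no arrays with each other, though their p-values share an estimate of the spread. The nitrogen and the genotype comparisons do share arrays. The WT arrays at high nitrogen, for one, enter both the hni9 change at that supply and the WT response to nitrogen.

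Whether the nitrogen response differed between the genotypes was tested by the interaction, the response of hni9 minus that of WT. Of the 9 genes limma called 0, where 0.703% of all probe sets passed. SWEET15 alone had an unadjusted p under 0.05, where the share of all probe sets was not counted. For SWEET2 the difference was -0.23 ± 0.21, with a 95% confidence interval of -0.69 to 0.23. The interval was -0.52 to 0.56 for SWEET13, -0.78 to 0.64 for SWEET14 and -0.18 to 0.42 for SWEET17. A difference of the size of the response itself lies outside each of these 4 intervals. These 4 genes are those that passed in both genotypes on the same arrays, which nearly fixes that outcome. The intervals therefore describe these genes and are no test of a shared response. Averaged over the genotypes, with 6 arrays against 6, the same 4 genes rose and 0 fell, where 4.61% of all probe sets rose and 4.34% fell. That average was 0.92 ± 0.11 for SWEET2, 1.08 ± 0.13 for SWEET13 and 0.60 ± 0.07 for SWEET17 (adjusted p = 5.76e-05, 5.72e-05 and 5.27e-05). For these 3 genes all low-nitrogen arrays lay above all high-nitrogen arrays, as for 1.86% of all probe sets.

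**Figure D3:**
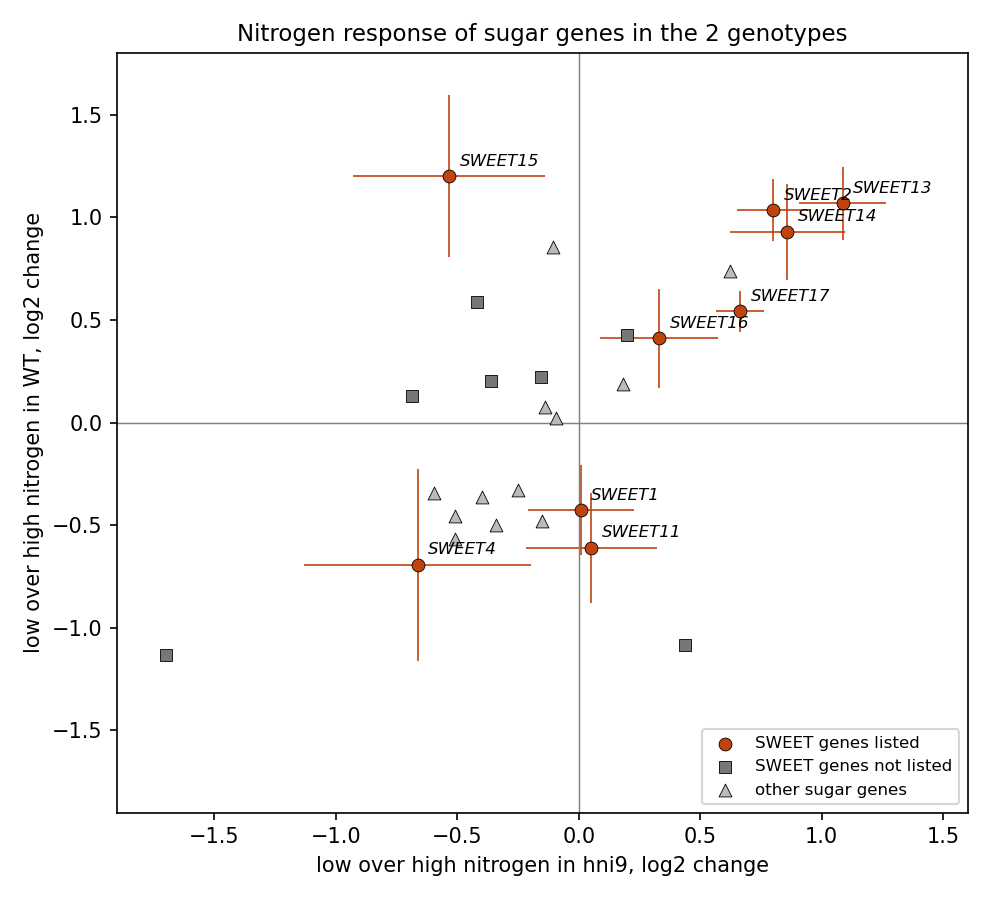
Log2 change of low over high nitrogen in hni9 (x axis) and in WT (y axis), with circles for the 9 listed SWEET genes (bars are ± 1 standard error), squares for 7 SWEET genes not listed and triangles for 12 other sugar genes. SWEET2, SWEET13, SWEET14 and SWEET17 lie at 0.54 or more on both axes, and SWEET15 is negative in hni9 and positive in WT.

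The 7 other SWEET genes, all measured, include SWEET5, SWEET8 and SWEET9, known from pollen and nectaries. None of their arrays exceeded an intensity of 190.3. Of the 7, 1 fell and 0 rose at low nitrogen in hni9, where 2.12% of all probe sets fell, with a median of -0.36. In WT limma called 0 of the 7, with 2 at an unadjusted p under 0.05, and the median was 0.20. The gene that fell was SWEET5, with 25.4, 6.66 and 7.55 in hni9 at low nitrogen, against 73.8, 45.5 and 121 in hni9 at high nitrogen, a change of -1.70 ± 0.42 (adjusted p = 0.0305). In WT it had 4.76 to 29.8 at low nitrogen, against 30.7 to 75.5 at high nitrogen, a change of -1.13 that did not pass. Averaged over genotypes, with 6 arrays against 6, it was again the 1 of the 7 that passed, at -1.42 ± 0.30 (adjusted p = 0.0066), where 4.34% of all probe sets fell. Of its hni9 values at low nitrogen, those of replicates 2 and 3 lie below the 16 that was added, and so does its lowest WT value at low nitrogen.

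Of 50 other sugar genes on 4 lists, 12 had a single-gene probe set. They are 4 of 14 monosaccharide symporters, 5 of 9 carriers of the vacuolar membrane, 3 of 20 enzymes of sucrose cleavage and synthesis and 0 of 7 sucrose symporters. At low nitrogen limma called 0 of the 12 in hni9 and 0 in WT, with 2 and 4 at an unadjusted p under 0.05, and their median change was -0.20 in hni9 and -0.34 in WT. The 4 monosaccharide symporters had changes of -0.60 to -0.34 in hni9 and -0.50 to -0.34 in WT, with 0 of the 4 at an unadjusted p under 0.05 in each genotype. All 4 were dim, with no array above an intensity of 195.6, and the group means of STP10 were 5.42 to 24.9. Averaged over genotypes 1 of the 12 fell and 0 rose, where 4.34% of all probe sets fell. That was TST1, a proton-driven sugar loader of the vacuole (named TMT1 in the annotation), at -0.29 ± 0.08 (adjusted p = 0.0363, 6 arrays against 6). In hni9 against WT over both supplies 1 of the 12 fell and 0 rose, where 5.01% of all probe sets fell, and that was SFP1, at -0.35 ± 0.07 (adjusted p = 0.00628).

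Few markers of root cell types could be read through the annotation used, which does not list all probe sets of the array. Of the lists drawn up for this purpose 2 of 6 genes of the epidermis and hairs and 1 of 5 of the endodermis and cortex were measured, and 0 of 5 of the phloem, 0 of 6 of the xylem and 0 of 4 of the stele. Both hair genes, the expansins EXPA7 and EXPA18, were above the array's median on all 12 arrays. EXPA7 rose in hni9, by 0.65 ± 0.12 at low and 0.47 ± 0.12 at high nitrogen (adjusted p = 0.00862 and 0.0235), while EXPA18 fell in hni9 at high nitrogen, with -0.86 ± 0.13 (adjusted p = 0.00102), and at low nitrogen in WT, with -0.54 ± 0.13 (adjusted p = 0.0226). Of 12 genes of green tissue 1 was measured, RCA, the activase of Rubisco. The endodermis and cortex gene, CO2, passed in 0 of the 7 comparisons. RCA gave 1180.2, 289.6 and 238 in hni9 at low nitrogen, 144, 584 and 274 in hni9 at high nitrogen, 503, 500.2 and 631 in WT at low nitrogen and 583, 439 and 393 in WT at high nitrogen, and passed in 0 as well. The part of these cell types in the SWEET results was not tested.

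For the 4 genes that rose, the 3 genes of closest profile were sought among genes above the median mean intensity, by the root-mean-square distance over the 12 arrays of log2 values centred on each gene's own mean. The closest to SWEET13 were ASPGB1, an asparaginase that frees ammonium from asparagine, at a distance of 0.192, AT5G08360 at 0.199 and AAH, an allantoate amidohydrolase that frees ammonium from a product of purines, at 0.211. The median distance of all 5915 genes from SWEET13 was 0.626. ASPGB1 had nitrogen changes of 1.19 in hni9 and 1.27 in WT, and AAH of 1.51 in hni9 and 1.02 in WT, beside 1.09 and 1.07 for SWEET13. The closest to SWEET2 were AT4G20860 at 0.175, ZCF37 at 0.183 and AT1G22170 at 0.191, against a median of 0.537. SWEET17 was nearest to AT1G10380 at 0.0968, AT4G00700 at 0.129 and AT5G49760 at 0.132, against a median of 0.434. SWEET14 was nearest to AT2G28710 at 0.169, AT4G09420 at 0.190 and AT5G20885 at 0.222, against a median of 0.593. Of the 4 genes, SWEET13 and SWEET14 were the closest pair, at 0.262, and SWEET13 and SWEET17 the farthest apart, at 0.310. Some other genes lay closer. SWEET14 ranked 17 by distance from SWEET13, beside 5915 genes, and SWEET13 ranked 10 by distance from SWEET14. SWEET2 ranked 328 by distance from SWEET17, and SWEET17 ranked 53 by distance from SWEET2. A gene that did not vary would lie at 0.582 from SWEET13 and 0.365 from SWEET17, which is the SD of each over the arrays. These genes share the arrays with the SWEET genes, and the distances are a description.

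**Figure D4:**
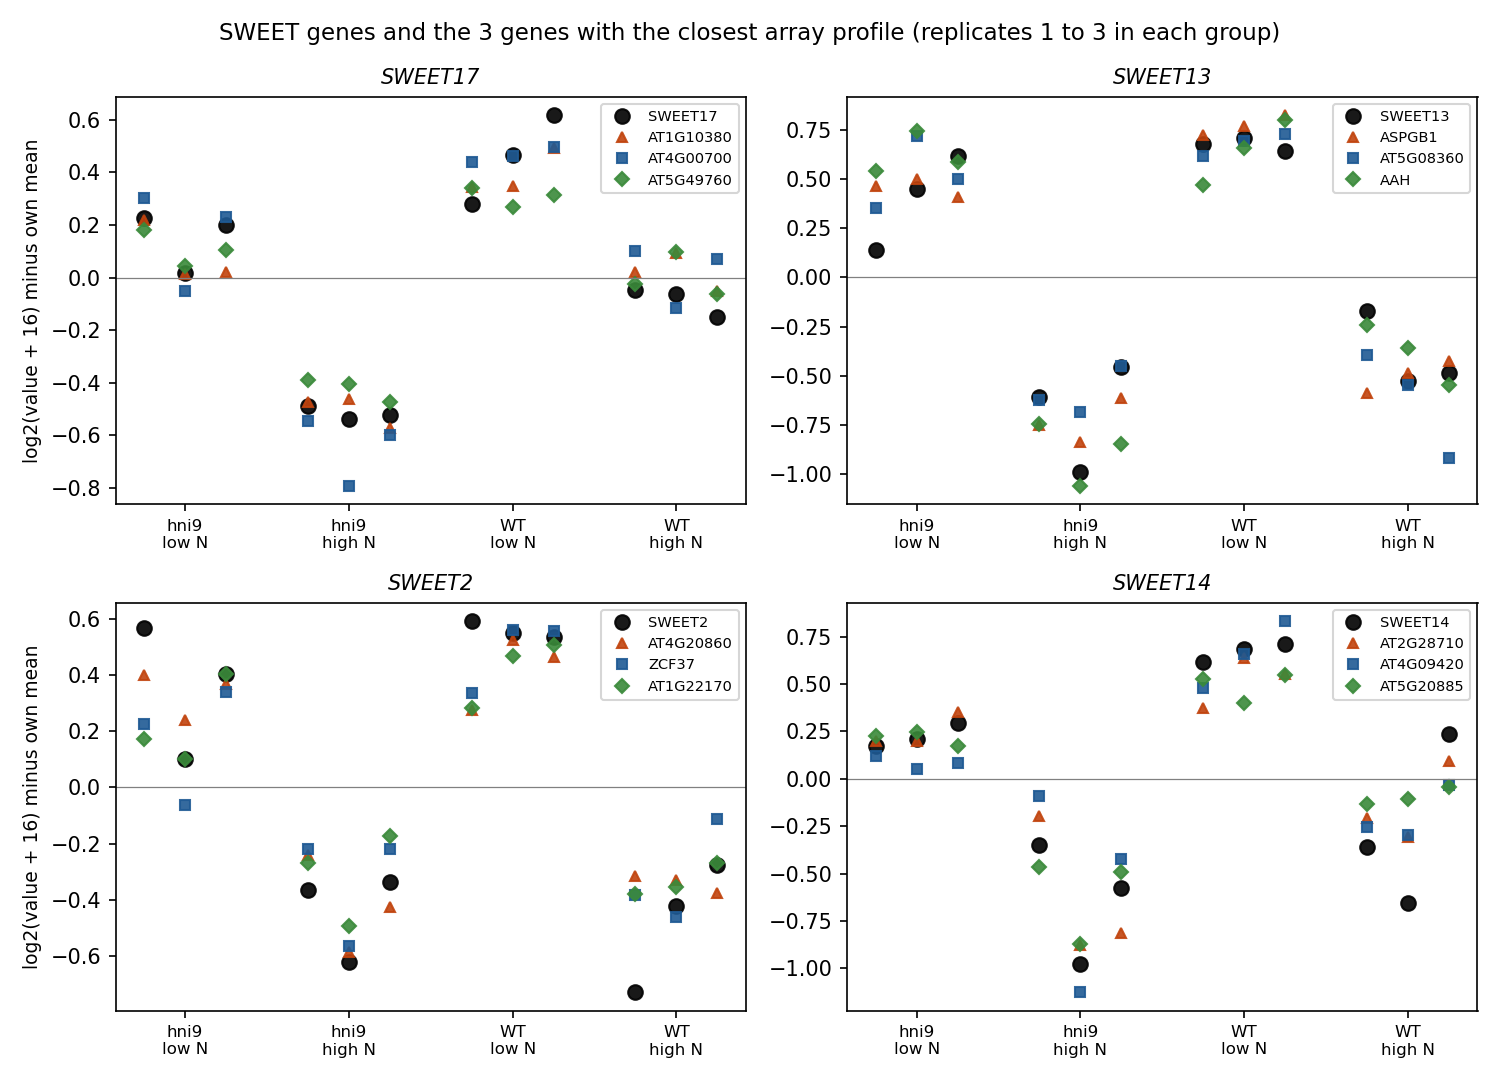
Log2(value + 16) minus each gene's own mean over 12 arrays, for SWEET17, SWEET13, SWEET2 and SWEET14 (black) and the 3 genes nearest to each; points are the 3 arrays of each group. In each panel the black points at low nitrogen lie above those at high nitrogen of the same genotype.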

How the data were processed

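The deposited values are linear probe set intensities. They show that the authors had scaled each array to a mean of 500.0 without its highest and lowest 2%. How probes were summarised the sources used here do not say. Groups and replicate numbers came from the titles. Of 22810 probe sets 64 controls were left out. Values were transformed as log2(value + 16), and limma 3.58.1 (R 4.3.3) fitted the 4 group means over the 12 arrays, with eBayes letting the variance follow intensity and with Benjamini-Hochberg adjustment over 22746 probe sets. The fit was also run on simulated data with independent normal noise and changes in WT at low nitrogen alone. Those data held no component shared by replicate number, so that case was not tested. Of the probe sets 13513 are annotated with 1 gene and 503 with several, and 8730 are not listed in the annotation used. RefSeq's table matched 13436 of the 13513 to a locus, and the brightest probe set stood for a gene. All listed SWEET genes with a probe set are named, and from other lists up to 3 past the threshold. Likeness was sought for up to 4 genes that passed, 3 genes each. Genes, lists and alternatives were chosen with earlier results of these data known. The number of arrays limits the precision. The labels call the replicates biological but do not say what they are. The p-values set group differences against the spread between these samples, as moderated by eBayes over all probe sets.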

Additional observations from a re-analysis of the deposited data

How the results depend on the processing

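Over 63 results for single SWEET genes (9 genes in 7 comparisons), 0 changed direction where called. Of the 63, 53 kept their side of the threshold under all alternatives run: 1 or 64 added in place of 16, centred arrays, quantile normalization, no intensity trend, the dimmest 40% left out, the replicate block, only the compared groups in the fit, replicates 1 and 2 alone, and each array left out. In all, 28 calls were lost, 13 of them of SWEET14 in hni9, and 3 were gained, all of SWEET16. With replicates 1 and 2 alone 2 genes passed at low nitrogen in hni9 in place of 4 (SWEET13 and SWEET17), 1 in WT in place of 4 (SWEET2), 0 for hni9 over WT at high nitrogen in place of 1, and 0 for hni9 over WT averaged over nitrogen in place of 2; fewer samples are part of that setting. Averaged over genotypes the same 4 genes passed with these replicates. For hni9 over WT at high nitrogen 0 passed without the intensity trend and 2 with the dimmest probe sets left out, where fewer genes are tested; the cause of the first was not tested. With 1 array left out that count was 0 to 2. It was 0 when WT replicate 1 or 2 at high nitrogen was missing, and 2 when hni9 replicate 2 at low nitrogen was. The counts for low over high nitrogen were then 3 to 4 in each genotype. Each listed SWEET gene has 1 probe set, so averaging probe sets could change nothing and was not run. The labels do not say that a replicate number marks a shared batch or day, and the numbers were not taken as a pairing. Deviations of same-numbered samples from their group means had correlations of 0.0216 to 0.150 over 18 pairs, 6 of them over 0.1, against -0.119 to 0.0512 over 36 pairs of different number. In 11 of 12 samples the best correlation was with their own number. Pairs within replicate 3 had 0.0989 to 0.150, and pairs of replicate 3 with replicate 1 or 2 had -0.119 to -0.0335. Pairs within replicate 1 or within replicate 2 had 0.0216 to 0.103, and pairs of replicate 1 with replicate 2 had -0.00268 to 0.0512. This is a hint from the data of a component shared by number, mainly one that sets replicate 3 apart. With the replicate block 4 genes passed at low nitrogen in hni9 and 4 in WT, 1 for hni9 over WT at high nitrogen and 2 averaged over nitrogen, the same genes as without it. Dim genes such as SWEET4 and SWEET15 had standard errors of 0.40 to 0.47 between 2 groups, which limits what could be detected for them.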
